A study of Mus musculus with 3 samples.

Results

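Colonic macrophages from Tle4cKO mice were set against those from Tle3cKO mice, as 1 pooled library of RNA a side. Genes whose mean over the 2 libraries reached 1 FPKM (fragments divided by transcript length and library size) were kept, which gave 11129 of the 23997 rows, and 7293 rows were at 0 in both. The Tle3cKO mice carried Tle3 fl/fl with Lyz2-Cre and the Tle4cKO mice carried Tle4 fl/fl with Lyz2-Cre, so both groups carried the same Cre, which is driven by the Lyz2 promoter of the myeloid lineage (macrophages, monocytes and neutrophils). All mice were untreated C57BL/6 males of 9 weeks (8.9 weeks in another label), and cells negative for Siglec-F, low in Ly6C and positive for CD64 were sorted from the colon at the same time and pooled from 3 Tle3cKO and 4 Tle4cKO mice. Differences are log2 ratios of Tle4cKO over Tle3cKO on FPKM plus a pseudocount of 1, which understates differences of low genes. With 1 library a side there was no test, and the spread between mice was not measured, so no difference below could be set against replicate error.

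TLE proteins are corepressors of the Groucho family. They bind no DNA themselves and are brought to their target genes by partners such as HES, RUNX and TCF/LEF proteins, where they repress transcription together with histone deacetylases. In the adult gut most macrophages are replaced steadily by blood monocytes, while a long-lived minority sits near vessels, nerves and crypts. Digested colon also holds epithelial cells, plasma cells, stromal cells and the glia of the enteric nervous system, whose RNA can enter a sort.

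The targeted genes were compared first. Tle4 (chromosome 19, 14448150 to 14598051 in mm10, minus strand, protein-coding) was at 11.0 FPKM in Tle3cKO mice and 5.80 FPKM in Tle4cKO mice, a log2 ratio of -0.82. Tle3 (chromosome 9, 61372366 to 61418497, plus strand, protein-coding) was at 70.7 FPKM in Tle3cKO and 46.9 FPKM in Tle4cKO, a log2 ratio of -0.58. Tle3 was thus higher in the library named for its deletion, which goes against that label, and the library is called the library labelled Tle3cKO from here on. Every direction below rests on that label. Paired values give the library labelled Tle3cKO first and Tle4cKO second. FPKM of a gene sums over its exons, and the labels do not say which exons are floxed, so a transcript without them would still be counted.

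The remaining family members differed less. The full-length corepressor Tle1 was at 42.3 and 32.4 FPKM (log2 ratio -0.37). Tle2 was low in both, at 2.16 and 1.43 FPKM (-0.38). The short member Aes, which lacks the WD40 domain that binds many partners, was at 70.7 and 75.2 FPKM (0.09), and Tle6 was at 1.39 and 1.53 FPKM (0.08). The 4 members Tle1 to Tle4 were therefore lower in Tle4cKO, and the short member and Tle6 were near equal.

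None of the genes compared beside the targeted loci differed 2-fold. Of all 11129 genes compared only 87 (0.782%) did, so finding none among 83 or 55 genes does not set these loci apart. Within 5 Mb of Tle3, 83 genes were compared, none was past 2-fold, and the median log2 ratio was -0.01. The largest in size were Zwilch (-0.66), Man2c1os (-0.53) and Stoml1 (0.42). Within 5 Mb of Tle4, 55 genes were compared, none was past 2-fold, and the median was 0.02. The largest there were Cntf, a neurotrophic factor made by glia (4.06 and 2.03 FPKM, -0.74), Fads2 (-0.47) and Nmrk1 (0.44). The rows of Man2c1os and Cntf have the same start as those of Man2c1 (11.2 and 11.1 FPKM) and Zfp91 (38.9 and 36.9 FPKM). The division of reads between such rows is uncertain.

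**Figure D1:**
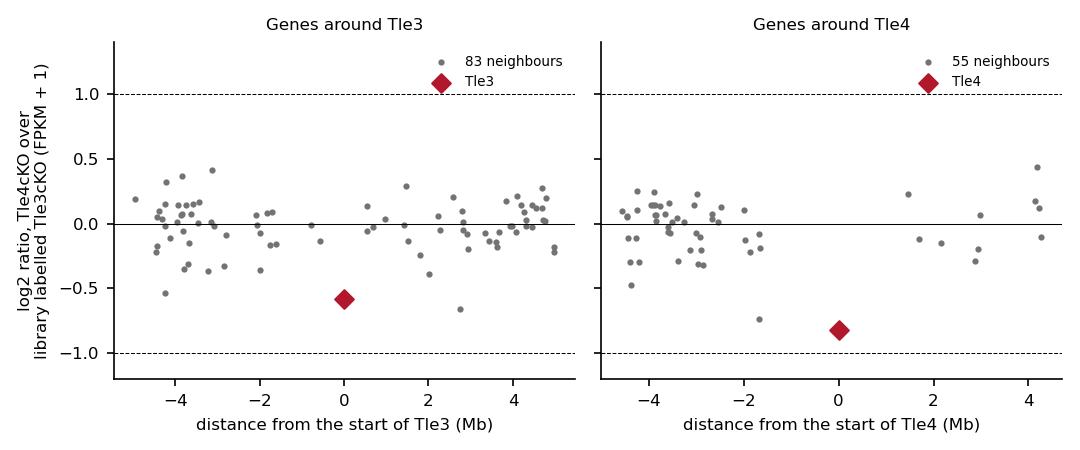
Log2 ratio of Tle4cKO over the library labelled Tle3cKO against distance in Mb from the start of Tle3 (left) and Tle4 (right), 1 point a gene, dashed lines at 2-fold. The 83 and 55 neighbours scatter around 0 while Tle3 (-0.58) and Tle4 (-0.82) lie below nearly all of them, with Zwilch lower than Tle3.

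The DNA-binding partners of the family were mostly near equal. Of 13 compared, 4 were higher and 9 lower in Tle4cKO, with a median of -0.13. The HES-related repressors were lowest: Hey1 was at 4.03 and 1.91 FPKM (-0.79), Heyl at 1.58 and 0.889 FPKM (-0.45) and Hes1, the main Notch-induced repressor, at 49.1 and 37.0 FPKM (-0.40). Runx2 was the highest, at 19.9 and 24.4 FPKM (0.28). Hey1 and Hes1 also stand in the Notch pathway list, whose 23 members split into 11 higher and 12 lower with a median of -0.01.

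Across all genes the libraries were close. Of the 11129 genes, 5831 (52.4%) were higher and 5298 (47.6%) lower in Tle4cKO, the median log2 ratio was 0.0094, and 88.6% lay within 1.25-fold. At least 2-fold higher in Tle4cKO were 29 genes (0.261%) and at least 2-fold lower were 58 genes (0.521%), 87 in either direction (0.782%). Of the 29, 19 were under 1 FPKM in the library labelled Tle3cKO, and of the 58, 20 were under 1 FPKM in Tle4cKO, so many passed the filter through the library where they were high. The share past 2-fold was 2.33% for genes at 1 to 2 FPKM and 0.395% at 20 to 100 FPKM. Just inside the threshold stood Il12b (1.02) and Sema3b (-1.0), and just outside it the joined row of Slc10a3-ubl4 and Ubl4 (0.98) and Prnp (-0.99). At the filter, Tanc1 (1.09 and 0.907 FPKM) was kept and Trib2 (1.09 and 0.907 FPKM) was not.

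**Figure D2:**
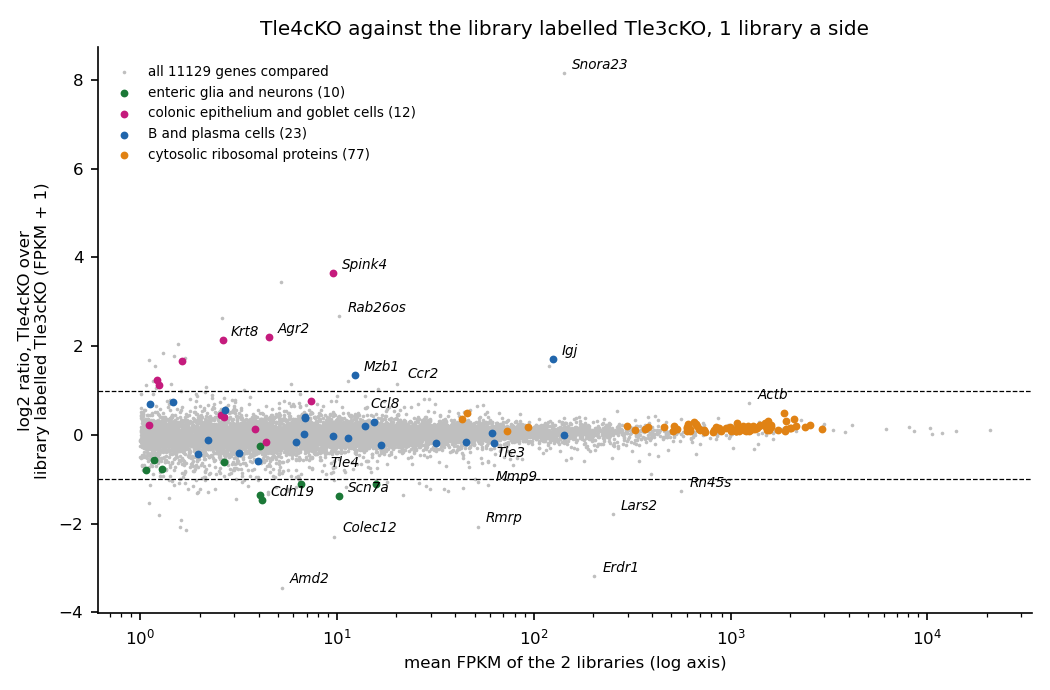
Log2 ratio against mean FPKM of the 2 libraries (log axis), 1 point a gene, with 4 gene lists in colour and dashed lines at 2-fold. Glial genes (green) lie below 0, epithelial genes (pink) mostly above, and the ribosomal protein genes (orange) form a narrow band just above 0.

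Signs of the gate were alike in both libraries. Fcgr1, which encodes CD64, was at 36 and 39.2 FPKM. The macrophage growth factor receptor Csf1r was at 406 and 387 FPKM and the F4/80 gene Emr1 at 143 and 147 FPKM. Of the 21 resident macrophage genes 14 were higher and 7 lower in Tle4cKO, none past 2-fold, with a median of 0.07 against 0.0094 over all genes. The median level of this list was 396 FPKM, and all genes at 100 FPKM or more also had a median of 0.07. The largest ratio of the list was that of Cx3cr1, the fractalkine receptor, at 7.64 and 11.4 FPKM (0.52). Lyz2, the gene whose promoter drives the Cre, was at 11.7 and 11.3 FPKM, beside 423 and 515 FPKM for its near-identical copy Lyz1, so the division of reads between them is uncertain.

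The groups that stood farthest from 0 were genes of other cell types, glia below and goblet cells above. Before their values, the 250 bases upstream of the start of 3 of these genes are shown, from RefSeq on GRCm38.p6 (the mm10 assembly): Muc2 and Agr2 among the leading goblet cell genes, and Scn7a among the leading glial genes. Capitals mark matches on either strand to a motif. The motif of SOX factors was searched as ACAANG, that of CDX factors as TTTATNG, and that of the core promoter as TATAAA, and no marked matches overlap.
Muc2 (chr7:141690090-141690339, plus strand): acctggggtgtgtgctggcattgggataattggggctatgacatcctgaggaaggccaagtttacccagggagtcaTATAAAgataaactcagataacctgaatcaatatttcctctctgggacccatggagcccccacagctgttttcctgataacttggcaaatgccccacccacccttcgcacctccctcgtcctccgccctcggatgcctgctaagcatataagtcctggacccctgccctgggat
Agr2 (chr12:35992675-35992924, plus strand): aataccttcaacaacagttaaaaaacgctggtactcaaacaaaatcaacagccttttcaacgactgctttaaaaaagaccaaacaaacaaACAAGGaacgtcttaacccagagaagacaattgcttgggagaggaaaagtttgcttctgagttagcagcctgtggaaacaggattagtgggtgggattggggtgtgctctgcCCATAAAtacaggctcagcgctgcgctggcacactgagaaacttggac
Scn7a (chr2:66784911-66785160, minus strand): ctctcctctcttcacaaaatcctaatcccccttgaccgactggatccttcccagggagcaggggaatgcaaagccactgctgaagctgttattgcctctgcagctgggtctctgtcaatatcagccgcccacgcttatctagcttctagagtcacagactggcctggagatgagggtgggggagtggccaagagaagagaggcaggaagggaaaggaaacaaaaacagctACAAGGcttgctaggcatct
The SOX motif occurred 160 bases before the start of Agr2 and 20 bases before that of Scn7a, the CDX motif 48 bases before the start of Agr2, and the core promoter motif 174 bases before that of Muc2. Among 32851 promoter windows of this length the SOX motif was in 36.3%, the core promoter motif in 12.4% and the CDX motif in 9.81%, so matches of this kind are common. A match was counted by its letters at any position in the window. Whether a motif acts where it was found, such as TATAAA in Muc2, was not tested.

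Genes of enteric glia, the supporting cells of the gut's own nervous system, were lower in Tle4cKO. Of 25 rows in the glia and neuron list 10 were compared, all 10 were lower and 5 were past 2-fold, with a median of -0.95. Of these, 3 passed the filter through the library labelled Tle3cKO alone, and the 7 with at least 1 FPKM in both libraries had a median of -1.10. Cdh19, a cadherin of the glial lineage, was at 6.59 and 1.74 FPKM (-1.47). Scn7a, a sodium channel of glia whose promoter is shown above, was at 15.3 and 5.29 FPKM (-1.37). The intermediate filament gene Gfap was at 9.34 and 3.82 FPKM (-1.10) and the small heat shock protein gene Cryab at 21.9 and 9.65 FPKM (-1.10). Each of these 4 genes was thus more than 2-fold lower in Tle4cKO.

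The low rows split by cell type. Of the 16 glial rows, whether or not they passed the filter, 16 were lower in Tle4cKO and none was higher, with a sum of 77.3 and 31.4 FPKM. The lineage factor Sox10 was at 1.17 and 0.253 FPKM and S100b at 1.64 and 0.514 FPKM. Of the 9 neuronal rows 5 were higher, 3 lower and 1 at 0 in both, none passed the filter, and their sum was 2.26 and 3.33 FPKM. Among them Uchl1 was at 0.57 and 1.31 FPKM and Tubb3 at 0.615 and 1.10 FPKM. This split of the list was made after its values were seen.

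Further genes known from glia or Schwann cells are named here, picked after their values were seen among the genes at least 2-fold lower in Tle4cKO. Their direction was therefore fixed by that choice. Gpm6b was at 8.27 and 2.85 FPKM (-1.27), Lgi4 at 5.25 and 1.80 FPKM (-1.16) and Gpr37l1 at 2.49 and 0.310 FPKM (-1.41). Gpr37l1 passed the filter through the library labelled Tle3cKO alone, and the row of Lgi4 shares a position with another. In bulk RNA, fewer cells of a type and less RNA per cell cannot be told apart, and the part of glia in the sort was not tested.

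Genes of the colonic epithelium lay on the other side. Of 33 rows 12 were compared, 11 were higher in Tle4cKO and 6 past 2-fold, with a median of 0.95. Of these 12, 7 passed the filter through Tle4cKO alone, among them all 6 past 2-fold. The 5 with at least 1 FPKM in both libraries had a median of 0.41, and none of them was past 2-fold. Over all 33 rows 27 were higher, 4 lower and 2 at 0 in both, with 12 at 0 in the library labelled Tle3cKO against 3 in Tle4cKO, and the sum was 25.0 and 74.5 FPKM. The depth of Tle4cKO was put at 1.25 times that of the other library, and the part of depth in the rows at 0 was not tested. The direction was thus shared by most rows, at low levels.

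Goblet cell genes led this group. Spink4, a secreted protease inhibitor of goblet cells, was at 0.56 and 18.6 FPKM (3.65). Agr2, a disulfide isomerase needed for mucin folding, was at 0.971 and 8.10 FPKM (2.21), and Muc2, the gel-forming mucin of the colon, at 0.256 and 3.0 FPKM (1.67). The keratin gene Krt8 was at 0.337 and 4.90 FPKM (2.14). Spink4, Agr2, Muc2 and Krt8 were each under 1 FPKM in the library labelled Tle3cKO, so they passed the filter through Tle4cKO alone. Retnlb, a goblet cell hormone-like protein outside the list, was listed at 0 in the library labelled Tle3cKO and at 5.23 FPKM in Tle4cKO, and Smim22 at 0 and 3.12 FPKM. Other epithelial genes differed less or in the other direction. Epcam was higher by less, at 2.02 and 3.14 FPKM (0.45), and Cdh1 was near equal at 0.782 and 0.752 FPKM. Tff3, a trefoil peptide of goblet cells, was at 0.689 FPKM and listed at 0 in Tle4cKO. The part of epithelial cells in the sort was not tested.

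**Figure D3:**
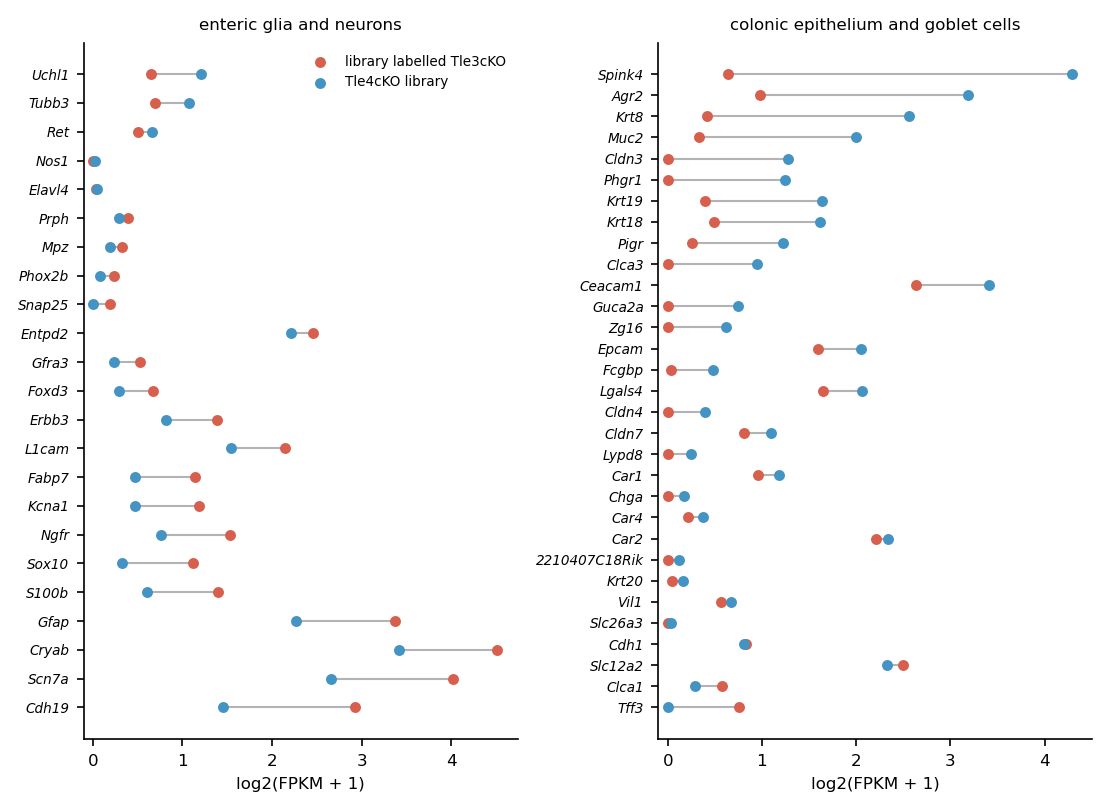
Level of genes of the glia and neuron list (left) and the epithelium and goblet cell list (right) as log2(FPKM + 1), red for the library labelled Tle3cKO and blue for Tle4cKO, without rows at 0 in both. Cdh19, Scn7a, Cryab and Gfap are farther right in red, and Spink4, Agr2, Krt8 and Muc2 farther right in blue.

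In the list of B and plasma cell genes 2 genes of antibody secretion were past 2-fold, and the others went both ways. Igj, the joining chain of secreted IgA and IgM, was at 57.9 and 192 FPKM (1.71). Mzb1, a chaperone of antibody secretion, was at 6.58 and 18.2 FPKM (1.34), and the plasma cell receptor gene Tnfrsf17, which passed the filter through Tle4cKO alone, at 0.845 and 2.1 FPKM (0.75). Eaf2, which also passed through Tle4cKO alone, was at 0.617 and 1.63 FPKM (0.70). Derl3 (5.81 and 7.87 FPKM, 0.38) and Pou2af1 (12.8 and 14.9 FPKM, 0.20) were higher by less. Some other genes that plasma cells use were near equal or lower: Sdc1 was at 60.1 and 62.3 FPKM (0.05), Xbp1 at 143 FPKM in both and Prdm1 at 66.6 and 58.6 FPKM (-0.18). Of the B cell genes, Ms4a1 (6.80 and 6.86 FPKM, 0.01) and Cd79a (33.9 and 29.9 FPKM, -0.18) differed little, Bank1 was lower (4.97 and 3.0 FPKM, -0.58) and Fcer2a higher (1.97 and 3.41 FPKM, 0.57). Over the whole list of 23, 12 were higher and 11 lower, 2 of them past 2-fold, with a median of 0.005. The list as a whole therefore stood at the level of all genes, and its sum, 524 and 660 FPKM, differed mainly through Igj. The part of plasma cells in the sort was not tested.

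Stromal genes were mostly lower in Tle4cKO, and so were most of the neutrophil genes compared. Of 28 fibroblast, endothelial and smooth muscle genes 7 were higher and 21 lower, none past 2-fold, with a median of -0.21 and a sum over the list of 605 and 545 FPKM. The endothelial tight junction gene Cldn5 was lowest at 3.78 and 1.53 FPKM (-0.92), followed by Esam (-0.60) and the smooth muscle gene Cnn1 (-0.58). Of 11 neutrophil genes 3 were higher and 8 lower, 2 past 2-fold, with a median of -0.23. The list summed to 1424 and 1156 FPKM, most of it from a single gene at 1139 and 922 FPKM. Of the 11 compared, 3 passed the filter through the library labelled Tle3cKO alone, Stfa2l1 among them, and the 8 with at least 1 FPKM in both had a median of -0.10. Mmp9, a gelatinase of neutrophils and macrophages, was at 80.3 and 36 FPKM (-1.13) and Stfa2l1 at 3.21 and 0.719 FPKM (-1.29), while S100a8 was at 93.5 and 102 FPKM (0.13). The granule genes Ngp, Camp, Ltf, Mpo and Elane were at 0.322 FPKM or less in each library, and the part of neutrophils in the Mmp9 difference was not tested.

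Dendritic cell genes leaned the other way, with 14 of 20 higher, none past 2-fold and a median of 0.09. Clec9a, a receptor of cross-presenting dendritic cells, was at 4.50 and 7.61 FPKM (0.65). The migration receptor Ccr7 was at 216 and 316 FPKM (0.55), Itgae at 10.5 and 15.1 FPKM (0.49) and the lineage factor Zbtb46 at 6.51 and 9.01 FPKM (0.41). Flt3, the growth factor receptor of these cells, was at 15.6 and 13.7 FPKM (-0.18), so the members did not share 1 direction.

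Chemokine receptor genes leaned higher in Tle4cKO. Ccr2, through which monocytes enter tissue along CCL2, was at 12.3 and 28.3 FPKM (1.14). It lies on chromosome 9 (124101950 to 124113557, plus strand, protein-coding) in a family of similar genes, so reads may be divided between copies. Of 13 chemokine receptors 10 were higher and 3 lower, with a median of 0.20. Ccr7 was at 216 and 316 FPKM (0.55), and Ccr1 (164 and 191 FPKM, 0.22) and Ccrl2 (53.4 and 55.2 FPKM, 0.05) differed less than Ccr2. Of the 20 genes of the monocyte and early macrophage stage 10 were higher and 10 lower (median -0.04), with Ccr2 the highest and Treml4 next (23.7 and 38.9 FPKM, 0.69), and the Ly6C genes Ly6c1 (11.6 and 9.50 FPKM) and Ly6c2 (5.98 and 6.52 FPKM) were near equal.

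The chemokine ligands split. Ccl8, a monocyte attractant, was at 10.3 and 22.1 FPKM (1.03), and the interferon-induced T cell attractant Cxcl9 at 9.48 and 18.3 FPKM (0.88). Ccl17 was also higher, at 47.5 and 68.2 FPKM (0.51). The lowest ratios were those of Ccl3 at 217 and 145 FPKM (-0.58), Ccl2 at 63.9 and 44.5 FPKM (-0.51) and the neutrophil attractant Cxcl1 at 411 and 274 FPKM (-0.58). Ccl7 (72.7 and 53.8 FPKM, -0.43), Cxcl2 (1456 and 1168 FPKM, -0.32) and Ccl4 (202 and 166 FPKM, -0.28) were also lower. Some other inflammatory ligands were near equal or slightly higher, such as Cxcl3 (474 and 457 FPKM, -0.05), Ccl5 (154 and 173 FPKM, 0.17) and Cxcl5 (4.10 and 4.73 FPKM, 0.17). Of 13 CC ligands 7 were higher and 6 lower (median 0.03), and of 11 CXC ligands 4 were higher and 7 lower (median -0.05).

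Cytokines and early response genes were mostly lower in Tle4cKO. Of 18 inflammatory cytokine genes 7 were higher and 11 lower, with a median of -0.15. Tnf was at 83.1 and 58.6 FPKM (-0.50), Il1b at 667 and 600.3 FPKM (-0.15), and the anti-inflammatory Il10 at 89.9 and 61.1 FPKM (-0.55). The exception past 2-fold was Il12b, the p40 chain of IL-12 and IL-23, at 1.88 and 4.83 FPKM (1.02). Of 35 immediate early and dissociation stress genes 10 were higher and 25 lower, none past 2-fold, with a median of -0.14. Egr3 (8.47 and 3.92 FPKM, -0.95) and Egr1 (173 and 117 FPKM, -0.55) were lowest, while Fos (329 and 295 FPKM, -0.15) and Junb (699 and 781 FPKM, 0.16) were closer to equal. These genes respond to tissue digestion, and its part in the cytokine and chemokine differences was not tested.

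Interferon and antigen presentation genes were slightly higher in Tle4cKO. Of 20 genes of MHC class I and the immunoproteasome 17 were higher and 3 lower, with a median of 0.16. The peptide transporter Tap1 was at 35.4 and 47.8 FPKM (0.42) and the proteasome activator Psme1 at 142 and 185 FPKM (0.38). Of 14 MHC class II genes 11 were higher (median 0.09), and of 41 interferon-stimulated genes 30 were higher and 11 lower (median 0.08). The guanylate-binding protein gene Gbp4 was highest at 10.8 and 16.9 FPKM (0.60), and Oas3 lowest at 6.51 and 4.69 FPKM (-0.40). None of these genes was past 2-fold. The class II list had a median level of 260 FPKM, and all genes at 100 FPKM or more had a median of 0.07, close to that of the list. MHC class I had a median level of 45.9 FPKM and interferon-stimulated genes 13.8 FPKM. All genes had medians of 0.04 at 20 to 100 FPKM and -0.004 at 5 to 20 FPKM. Over the alternative settings described below the medians ranged from 0.09 to 0.18 for MHC class I. They ranged from 0.02 to 0.11 for class II and from 0.01 to 0.08 for interferon-stimulated genes.

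Markers of long-lived tissue macrophages went both ways, with 8 of 19 higher, 11 lower and a median of -0.15, which was -0.05 over 22 genes with no filter. Colec12, a scavenger receptor of the collectin family, was the lowest of the list, at 16.6 and 2.61 FPKM (-2.29). The ficolin gene Fcna was at 7.98 and 3.74 FPKM (-0.92), the haemoglobin receptor gene Cd163 at 8.98 and 5.94 FPKM (-0.52) and the folate receptor gene Folr2 at 14.5 and 10.6 FPKM (-0.43). Timd4 (53.0 and 45.9 FPKM, -0.21) and Cd4 (72.8 and 62.5 FPKM, -0.22) differed little, and Mrc1 was at 98.7 FPKM in both. Higher in Tle4cKO were Cd209d (3.94 and 5.58 FPKM, 0.41) and Retnla (140 and 180 FPKM, 0.36). Colec12 is also made by stromal and endothelial cells, whose list had a median of -0.21 here, and their part in it was not tested.

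Several further genes were among the 15 lowest at a mean of at least 5 FPKM. The calcineurin inhibitor Rcan1 was at 52.1 and 21.3 FPKM (-1.25) and the secreted phospholipase gene Pla2g2d at 39.5 and 17.4 FPKM (-1.14). The actin cross-linker Flnc (-1.23), the small GTPase Rhoj of endothelial cells (-1.17) and S100a16 (-1.17) were also among them. Mid1, which spans the pseudoautosomal boundary in mice, was at 49.5 and 20.6 FPKM (-1.23), and Erdr1, in the pseudoautosomal region, at 367 and 39.5 FPKM (-3.18). On the high side Rab26os, an antisense transcript, was at 2.03 and 18.5 FPKM (2.69) and the relaxin family gene Insl6 at 6.47 and 16.2 FPKM (1.20), and these were followed below 2-fold by Cox6b2 (0.93), Pisd-ps1 (0.81), Snhg3 (0.80), Pafah1b3 (0.77), Ceacam1 (0.77) and Trappc2 (0.77). Reads of an antisense transcript and its partner cannot be told apart where strand is not kept, which the labels do not state.

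Ribosomal protein and respiratory chain genes were higher in Tle4cKO by small amounts. All 77 cytosolic ribosomal protein genes were higher in Tle4cKO, with a median of 0.16 and none past 2-fold. Rps21 was at 1553 and 2172 FPKM (0.48) and Rps29 at 1829 and 2360 FPKM (0.37). Of 74 oxidative phosphorylation subunits 68 were higher and 6 lower (median 0.11). Other abundant genes leaned the same way: of 776 genes at 100 FPKM or more outside the ribosomal list 531 were higher, with a median of 0.06. Scaling both libraries to the same total lowered the median of all genes to -0.05 and that of the ribosomal proteins to 0.09, and removing the trend over genes with level or with transcript length gave 0.07 or 0.10 for them, so the size of their difference depended on the scale.

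Several rows of the RNA quality list, which holds abundant non-coding RNAs and a few protein-coding genes, differed 2-fold or more. Rmrp, the RNA of a mitochondrial and nucleolar RNase, was at 84.3 and 19.4 FPKM (-2.07). The ribosomal RNA precursor Rn45s was at 795 and 331 FPKM (-1.26), the protein-coding Lars2, a mitochondrial leucyl-tRNA synthetase, at 391 and 113 FPKM (-1.78) and the nuclear RNA Malat1 at 509 and 276 FPKM (-0.88). Neat1 was near equal at 195 and 192 FPKM, Rpph1, the RNA of RNase P, was at 27.4 and 31.8 FPKM (0.21), and the actin gene Actb was higher in Tle4cKO, at 939 and 1550 FPKM (0.72). Snora23, whose row shares a position with Ipo7, was listed at 0 in the library labelled Tle3cKO and at 285 FPKM in Tle4cKO. Scarna13 was at 2.50 FPKM and 0. Rmrp, Rn45s and Rpph1 carry no poly(A) tail and did not share 1 direction, and the part of these RNAs in the other differences was not tested.

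**Figure D4:**
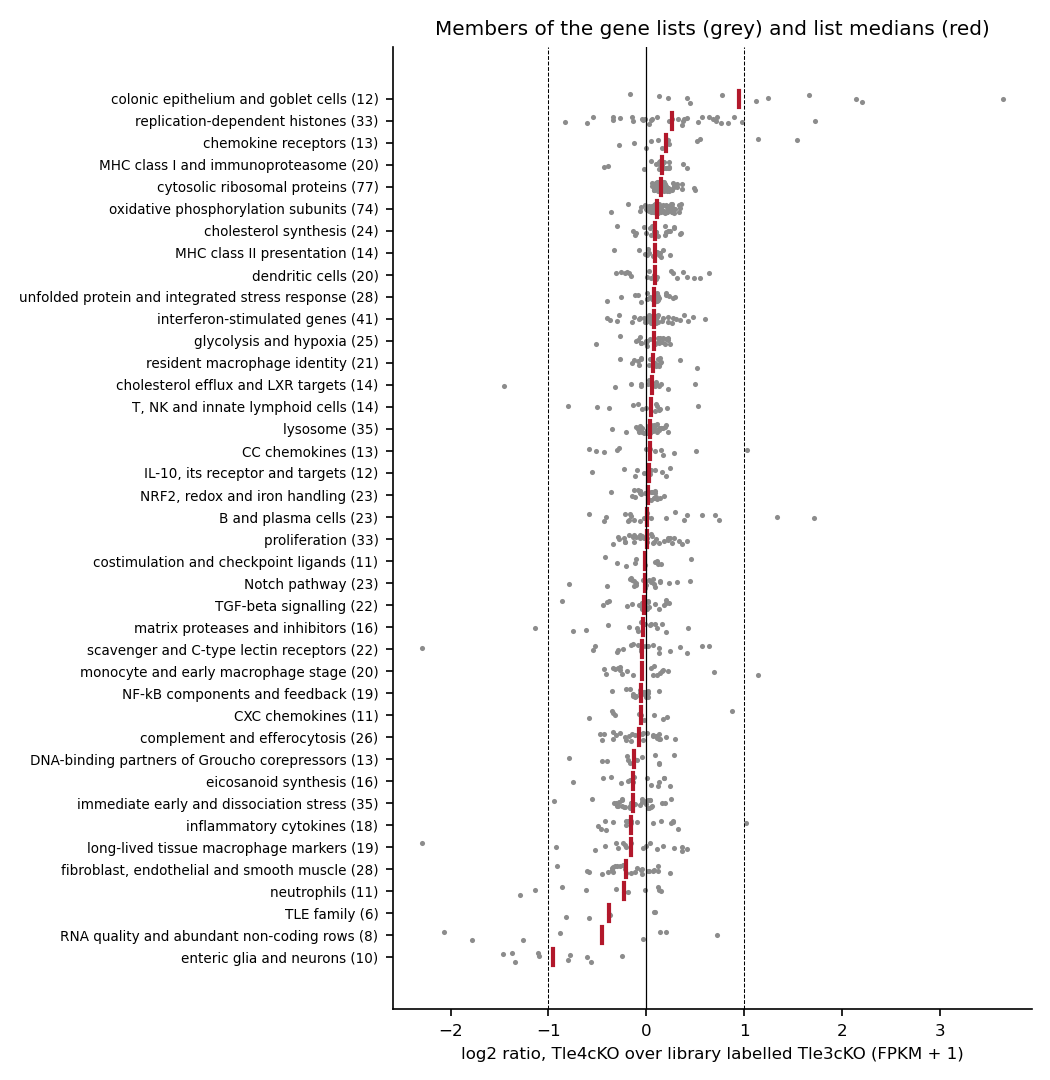
Log2 ratio of each compared gene by list (grey points, lists with at least 3 compared genes, number in brackets) with the list's median in red, ordered by median, dashed lines at 2-fold. Epithelium and goblet cells stand at the top (0.95), enteric glia and neurons at the bottom (-0.95), and most macrophage lists lie within 0.2 of 0. Of the 12 epithelial genes 7 passed the filter through Tle4cKO alone, and of the 10 glial genes 3 through the library labelled Tle3cKO alone.

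Most of the other lists lay closer to the median of all genes, with the histones as an exception. Metabolic and secretory lists leaned higher in Tle4cKO: 19 of 24 cholesterol synthesis genes (median 0.09), 23 of 28 genes of the unfolded protein and integrated stress response (0.08), 16 of 25 genes of glycolysis and hypoxia (0.08) and 24 of 35 lysosomal genes (0.04). Over the alternative settings these medians ranged, in the same order, from 0.03 to 0.10, 0.01 to 0.08, 0.01 to 0.08 and -0.03 to 0.06. The median levels of the stress response and lysosomal lists were 138 and 159 FPKM. All genes at 100 FPKM or more had a median of 0.07, so these lists stood near or below genes of like level. Glycolysis had a median level of 46.1 FPKM and cholesterol synthesis 12.2 FPKM. All genes had medians of 0.04 at 20 to 100 FPKM and -0.004 at 5 to 20 FPKM. The chaperone genes Hyou1 (131 and 159 FPKM, 0.28) and Pdia4 (84.7 and 104 FPKM, 0.30) were among the highest of the stress response. Complement and efferocytosis genes leaned lower, with 10 of 26 higher (-0.08), as did eicosanoid synthesis genes, with 7 of 16 higher (-0.13). Alox5, the leukotriene-forming lipoxygenase, was at 12.2 and 6.86 FPKM (-0.75), and Tgfb2, the largest of 22 TGF-beta signalling genes (median -0.02), at 4.02 and 1.76 FPKM (-0.86). Proliferation genes showed no common direction, with 17 of 33 higher and 16 lower. Replication-dependent histones stood apart from these with a median of 0.26, 22 of 33 being higher and 1 past 2-fold.

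Some of the largest ratios came from near-identical gene copies whose rows share a position. Amd2, the lowest log2 ratio of all genes compared, was at 10.4 and 0.052 FPKM (-3.44). The joined row of Amd1 and Amd2 at that position was at 17.0 and 26.8 FPKM, so the 2 rows summed to 27.4 and 26.8 FPKM. The joined row of Eif3j1 and Eif3j2 was at 0.038 and 10.4 FPKM, but summed with Eif3j2 it came to 60.3 and 58.7 FPKM. For Hist2h3c2, the highest of 33 histone genes (0.247 and 3.14 FPKM, 1.73), the sum with its joined row was 3.66 and 3.14 FPKM. In these 3 pairs the totals differed far less than the single rows. Of all compared rows 2382 (21.4%) shared a position with another, including 7 of the 29 higher and 15 of the 58 lower genes.

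**Figure D5:**
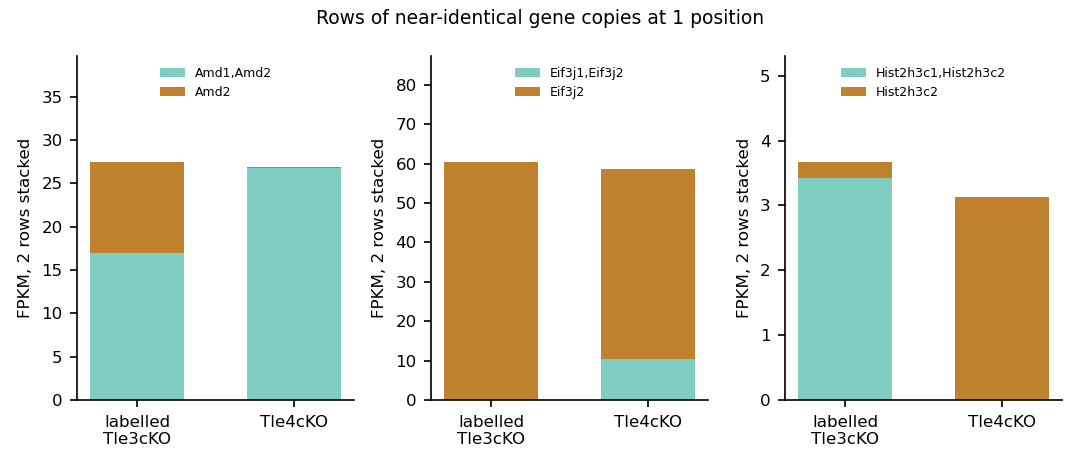
FPKM of 2 rows at 1 position, stacked from 0, for each library, in 3 pairs. The summed bars are of like height in both libraries (27.4 and 26.8, 60.3 and 58.7, 3.66 and 3.14 FPKM) while the colours divide differently.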

How the data were processed

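RNA was measured in 2 pooled libraries, 1 per group, grouped by sample title. The authors deposited FPKM values per gene, per the file headers. TopHat2 version 2.1.0, Cufflinks version 2.2.1 and build mm10 are named in the submitters' processing notes, with no part given to each. Cufflinks estimates how reads that fit several gene copies are divided, so rows of near-identical, overlapping or antisense genes are uncertain. FPKM also divides by transcript length and depth.

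From these values log2 ratios were computed on FPKM plus 1 for genes whose mean reached 1 FPKM, with Python 3.11.15, numpy 2.4.6 and pandas 2.3.3, and checked on simulated data. Genes differing 2-fold or more were counted, and no test was made. Absolute depth is unknown. The commonest ratio of low values (1953 genes under 0.3 FPKM) put the depth of Tle4cKO at 1.25 times that of the library labelled Tle3cKO, and total FPKM was 598023 and 569961. Coordinates are from GENCODE M21 on the same assembly and promoters from RefSeq. The WT library was not used here.

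The comparison and its 41 gene lists were chosen with earlier results of these data known. Named genes are the TLE family, the 15 highest and 15 lowest among genes averaging 5 FPKM or more (without unnamed, small RNA, segment and joined rows), up to 4 leading members of each list, genes listed at 0 in 1 library and at 2 FPKM or more in the other, the 3 leading genes within 5 Mb of Tle3 and of Tle4, and members of lists described in full. A few genes that this rule takes are not reported here. Other named genes were chosen after their values were seen. Alternatives were other pseudocounts, filters, scalings and thresholds, and, added after seeing the data, removing trends with length or level, rows that share a position, or other cell type lists.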

Additional observations from a re-analysis of the deposited data

How the results depend on the processing

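The counts of 29 higher and 58 lower genes depended on how low values were treated. They were 56 and 139 with a pseudocount of 0.1, 9 and 12 with a pseudocount of 5, and 11 and 26 at a mean of at least 5 FPKM. At a threshold of 1.5-fold they were 106 and 234, and at 3-fold 14 and 9, where higher genes outnumbered lower ones. Without rows that share a position they were 22 and 43, and without genes of the other cell type lists 21 and 51, both added after seeing the data. Of 26 lists with a median of at least 0.05 in size, 23 kept their sign in every setting run. Resident macrophage identity turned to -0.0092 with the trend with level removed. Cholesterol efflux and LXR targets turned to -0.0073 at the same total FPKM and -0.016 without rows that share a position. Abundant non-coding rows turned to 0.039 with the trend with transcript length removed, where fewer of its rows have a length. The cause of the other reversals was not tested. Among 40 named genes past 2-fold, none of 440 values in other settings changed sign and 29 moved. No paired analysis was possible because each group has 1 library. Without replicates or known depth, neither mouse-to-mouse spread nor counting error could be given.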

Other observations

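Paired values give the library labelled Tle3cKO first and Tle4cKO second. Clock genes were looked at after their values were seen. The Rev-erb repressors and the PAR bZIP activators were lower in Tle4cKO, 5 of 5: Nr1d1 was at 19.3 and 10.3 FPKM (log2 ratio -0.84), Dbp at 2.44 and 0.932 FPKM (-0.83), Tef at 9.79 and 7.55 FPKM (-0.34), Nr1d2 at 23.9 and 19.0 FPKM (-0.32) and Hlf at 0.897 and 0.573 FPKM. Of 7 other clock genes 3 were higher and 4 lower, with Per1 at 17.3 and 18 FPKM (0.05), Arntl at 6.73 and 6.44 FPKM (-0.05) and Cry1 at 19.7 and 19.8 FPKM (0.01). Clock was at 5.71 and 6.31 FPKM (0.12), while Per3 (0.687 and 0.449 FPKM, -0.22), Cry2 (4.68 and 3.93 FPKM, -0.21) and Per2 (2.25 and 1.98 FPKM, -0.13) were lower by amounts close to those of Hlf (-0.27) and Nr1d2. The labels give 1 time of sorting for all mice, and the part of the time of day in these differences was not tested.

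In the apolipoprotein cluster the members differed in opposite directions. Apoc4 was listed at 0 in the library labelled Tle3cKO and at 2.21 FPKM in Tle4cKO, while Apoc1 was at 4.94 and 1.17 FPKM (-1.45) and Apoc2 at 21.4 and 16.9 FPKM (-0.32). Apoe, by far the most abundant of them, was near equal at 8278 and 8850.5 FPKM (0.10). The YAP and serum response genes Cyr61 (71.1 and 33.3 FPKM, -1.07) and Ctgf (21.3 and 15.3 FPKM, -0.45) were lower in Tle4cKO, as was the sphingosine kinase gene Sphk1 (21.4 and 10.1 FPKM, -1.02).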
